A study of Arabidopsis thaliana with 83 samples.

Results

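Transcript signals of 5 Arabidopsis genes, AT5G03350, AT5G24210, AT5G52760, AT2G38870 and AT3G18250, were followed in 7 natural accessions over a course of auxin treatment. They were taken by locus, each from the probe set that the platform annotation lists with that locus alone, so 5 of 22746 probe sets are described. The 5 genes had been picked as defence-related genes whose response on these same arrays differed between accessions. Their changes in single accessions, and the spread of those changes, are therefore values without a test. The level in each accession before treatment was part of the choice too, so levels are likewise given without a test. Tests were run only on the response averaged over all accessions. All 5 probe sets passed the filter on low signal, which kept 15922.

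Whole plants at the seedling stage were profiled on Affymetrix ATH1 arrays, 1 array per sample, in Col-0, C24, Sha, Bl-1, Fei-0, Bur-0 and Bay-0 before treatment (0 h) and after 30 min, 1 h and 3 h. That made 28 groups of 3 arrays, with 2 for Fei-0 at 3 h, 83 in all. All plants had 5 days of cold as seed and then 7 days of shaken culture in liquid, under constant light at 22 °C, with the light yellow-filtered over the last 24 h. No group carried a transgene or mutation in its labels, but the Bay-0 arrays carry a second label, recombinant inbred line, beside their ecotype, and were read here as Bay-0. The sources used here give neither the auxin dose nor mock-treated arrays, so an effect of time in culture or of handling cannot be told apart from an effect of auxin. Sample numbers run by accession and time, so batch and group cannot be told apart either. Probes of this array were designed on the Col-0 genome, and sequence differences between accessions at the probes were not tested.

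Salicylic acid is a plant hormone that accumulates after attack by biotrophic pathogens and, through the co-activator NPR1 and TGA and WRKY transcription factors, switches on defence genes, while jasmonate and ethylene drive a partly opposed branch that ends in defensins such as PDF1.2. Auxin and salicylic acid signalling are known to restrain each other in Arabidopsis. Natural accessions differ in how much of the salicylic acid branch is active without infection. Of the 5 genes, AT5G03350 encodes a legume lectin-like protein known to be induced by salicylic acid, AT5G24210 a lipase-like alpha/beta hydrolase, AT5G52760 a small protein with a heavy-metal-associated domain, AT2G38870 a serine proteinase inhibitor of the potato type I family, and AT3G18250 a predicted membrane lipoprotein.

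The arrays were scaled alike, with median signals of 38.0 to 43.3, and arrays of a group correlated at r = 0.975 to 0.993 across probe sets. The treatment marks responded in every accession: the log2 change from 0 h was 3.49 to 6.23 for GH3.3, an auxin-conjugating enzyme, 0.98 to 3.79 for the homeodomain factor HAT2, and 2.54 to 3.89 for the lateral root factor LBD29. The 3'/5' signal ratio of GAPDH, a sign of RNA quality, had group means of 1.41 to 2.99, and that of actin 2.57 to 105. Photosynthetic shoot markers (2 of 6 with a probe set listed alone) summed to 2298 to 8534 per array. Root markers (3 of 6) summed to 76.5 to 515, with no single marker at 0. In whole plants, fewer cells of a type and less RNA per cell cannot be told apart. Changes below are differences of log2(signal + 16) with their standard error (SE) from the model, and levels are mean signals with the standard deviation (SD) over arrays, n = 3 (2 for Fei-0 at 3 h). For a mean response, SE and p rest on how arrays within groups vary and leave out the variation among accessions.

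The 7 accessions fell into different courses. In Bl-1 all 5 genes lay below their own 0 h arrays at 30 min, without overlap (21% of tested probe sets did so), and again at 1 h (15.9%), and 3 of 5 at 3 h (19.7%). In Bay-0, 4 of 5 lay above at 30 min (14%), 0 at 1 h and 5 at 3 h (17.4%). In Sha 2 of 5 lay above at 30 min (15.1%), 3 at 1 h (12.5%) and all 5 after 3 h (15.6%). Bur-0 had 4 of 5 above at 1 h (16.7%) and at 3 h (20.5%). C24 had 4 of 5 above at 1 h (15.6%) and 3 of 5 at 3 h (18.5%). At 30 min Bur-0 and C24 each had 1 of 5 above and 1 below (22.7% and 23.6% in either direction). In Col-0, 4 of 15 comparisons were above and 7 below (33.7% in either direction). In Fei-0, 6 of 15 comparisons had no overlap in either direction (23.8%). All 9 later arrays lay below 0 h in Bl-1 for 3 of 5 genes (6.28%) and above it in Sha for 2 of 5 (4.89%), and 3 of 5 lay below in Bl-1 and above in Sha at 3 h (2.74%). Over all 105 comparisons of 5 genes in 7 accessions at 3 times, 43 were above and 25 below without overlap, against a background of 30% in either direction. Since the genes were picked on these contrasts, nothing is read from those counts.

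**Figure D1:**
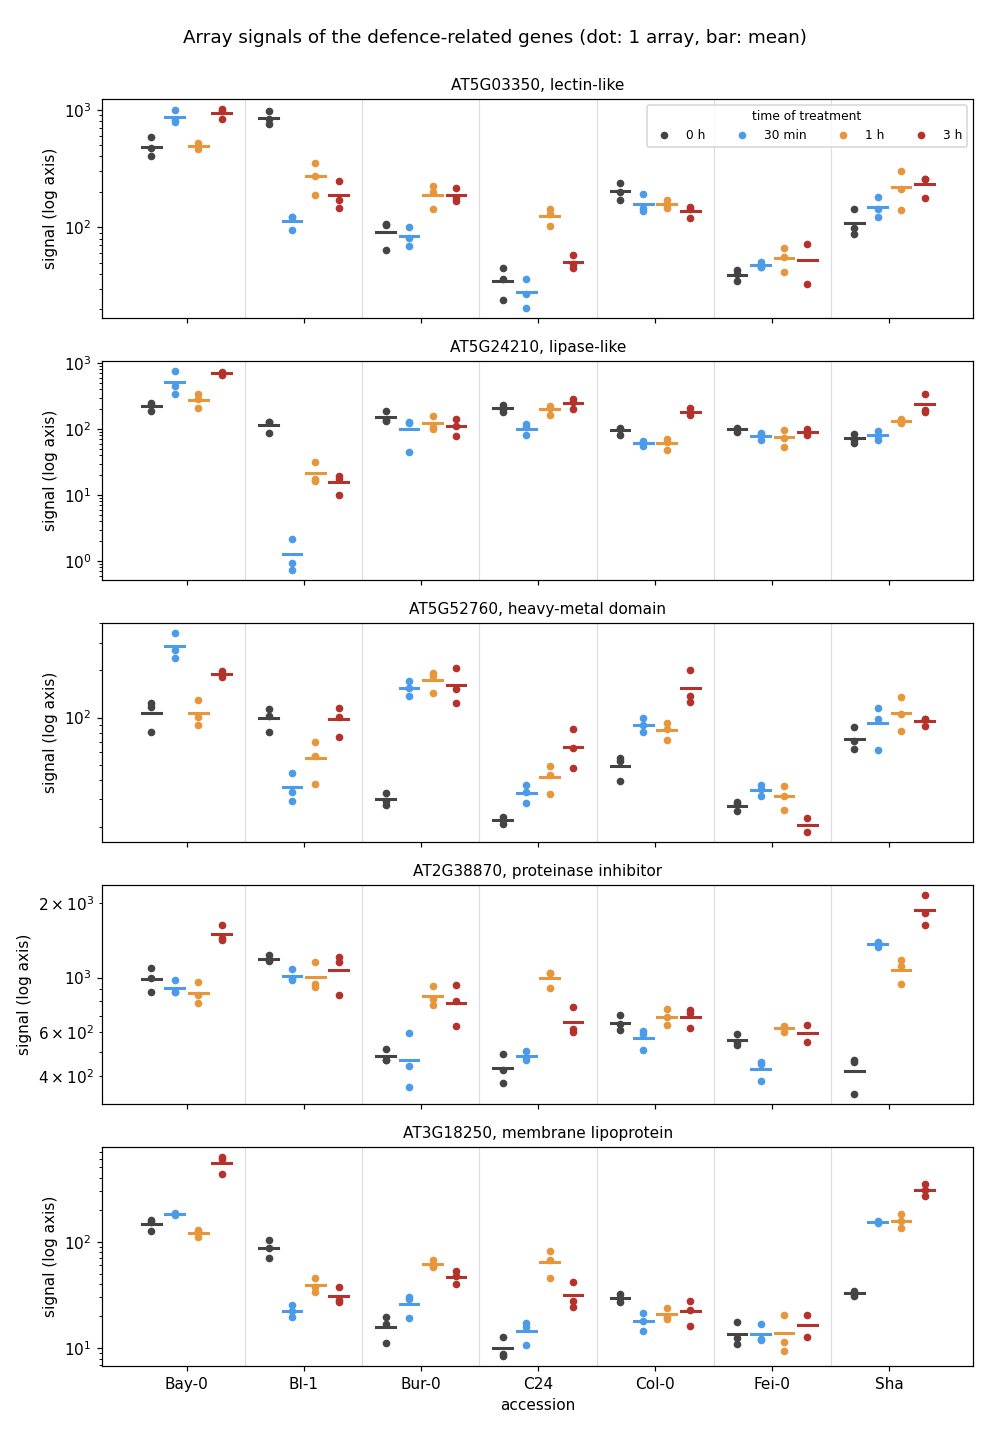
Signal of each gene on a log axis, by accession and time of treatment, with 1 dot per array and a bar at the group mean. In Bl-1 the 9 later arrays of AT5G03350, AT5G24210 and AT3G18250 lie below its 3 arrays at 0 h, and in Sha the 9 later arrays of AT2G38870 and AT3G18250 lie above them.

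AT5G03350, the lectin-like gene, differed most between accessions before treatment. At 0 h its signals were 833, 978 and 762 in Bl-1 and 402, 581 and 473 in Bay-0. They were 36.0, 24.1 and 44.9 in C24 and 43.3, 34.8 and 40.0 in Fei-0. The mean of Bl-1 was thus 24.5 times that of C24, and the order from low to high was C24, Fei-0, Bur-0, Sha, Col-0, Bay-0 and Bl-1, where C24 overlapped Fei-0 and Bur-0 overlapped Sha. Bl-1 then gave up its first place: its signals were 122, 94.0 and 122 at 30 min, 189.8, 275 and 350.0 after 1 h, and 169, 247 and 146 after 3 h, changes of -2.76 ± 0.20, -1.63 ± 0.20 and -2.13 ± 0.20. The mean at 0 h was 7.60 times that at 30 min, and the 9 later arrays, at 94.0 to 350.0, all lay below the 3 at 0 h.

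No other accession was lower by as much as Bl-1 in AT5G03350. In Bay-0 the arrays stood at 986, 779.9 and 821 at 30 min, 489.9, 467 and 518 after 1 h, and 979.6, 1007 and 839 after 3 h, so the level was up, back at the start and up again (changes of 0.82 ± 0.20, 0.03 ± 0.20 and 0.94 ± 0.20). C24 peaked at 1 h, with 129, 144 and 102 (change 1.48 ± 0.20), and at 3 h, with 44.7, 49.0 and 57.9, overlapped its 0 h arrays. Bur-0 was higher from 1 h, and its 3 h signals of 168, 216 and 177 stood against 104, 106 and 63.8 at 0 h. Sha had 259, 176 and 259.7 at 3 h (change 0.98 ± 0.20), all above its own 142, 98.8 and 87.8. In Col-0 the changes were small and downward (-0.32, -0.33 and -0.49 in time order), and in Fei-0 small and upward (0.21, 0.34 and 0.25). At 3 h Bay-0 was the highest accession, at 942 ± 90.1, 18.6 times C24.

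Averaged over the 7 accessions these courses largely offset each other. The mean response of AT5G03350 was -0.28 ± 0.08 (adjusted p = 0.0041) at 30 min, 0.24 ± 0.08 (adjusted p = 0.0112) at 1 h and 0.13 ± 0.08 (adjusted p = 0.187) at 3 h in limma, with 3, 5 and 5 of 7 accessions upward, and none reached 2-fold. Without Bay-0 the 3 h value was -0.01. Without Bl-1 the 30 min and 3 h values were 0.14 and 0.50. From 30 min to 1 h the mean step was 0.52 ± 0.08 (adjusted p = 1.77e-07). The level averaged over the 4 times ranged by 3.42 on the log2 scale, from 5.99 in Fei-0 to 9.40 in Bay-0, and by 2.15 when Bay-0 was left out.

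AT5G24210, the lipase-like gene, was lower after treatment in Bl-1 and higher in Bay-0 and, by 3 h, in Sha. The 0 h means ran from 71.9 ± 12.0 in Sha to 225 ± 30.9 in Bay-0, 3.12 times as high, and neighbours in the order Sha, Col-0, Fei-0, Bl-1, Bur-0, C24, Bay-0 overlapped everywhere except between Bl-1 and Bur-0. In Bl-1 the signals went from 127, 129 and 85.9 at 0 h to 0.94, 0.73 and 2.14 at 30 min. They were 16.2, 17.3 and 31.9 after 1 h, and 9.96, 19.4 and 17.3 after 3 h. The 30 min values lie far under the 16 added before taking logs, and the change of -2.89 ± 0.22 depended on the number added: it was -5.69 with 1 added and -1.44 with 64 added. With such low signals its size is not well measured, although the 9 later arrays all lay at or under 31.9.

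Bay-0 moved the other way. Its signals of 190.1, 235 and 249 at 0 h became 750.5, 344 and 454 at 30 min and 726, 665 and 698 at 3 h, with 335, 209 and 285 between them at 1 h, and the changes were 1.08 ± 0.22, 0.27 ± 0.22 and 1.57 ± 0.22. Sha showed no such dip, with 85.4, 68.2 and 62.2 at 0 h, 129.7, 123 and 141 after 1 h, and 339, 179 and 196 after 3 h (change 1.49 ± 0.22). Col-0 was lower at 30 min and 1 h and higher at 3 h, at 61.5, 65.1 and 55.5, 63.5, 47.9 and 70.7 and 183, 163 and 206 against 105, 82.1 and 101 at 0 h, each time without overlap. C24 was lower at 30 min alone (-0.92 ± 0.22), Bur-0 had -0.64, -0.29 and -0.44 and Fei-0 -0.27, -0.36 and -0.10 in time order. At 30 min 5 of 7 accessions lay below their 0 h arrays without overlap, and Bay-0 above.

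The mean response of AT5G24210 was -0.58 ± 0.08 (adjusted p = 2.95e-08), -0.29 ± 0.08 (adjusted p = 0.00428) and 0.22 ± 0.08 (adjusted p = 0.0258) at the 3 times in limma. The first was the largest downward mean among the 5 genes and stayed under 2-fold, but it was -1.02 with 1 added to the signals and -0.19 without Bl-1. The 1 h value was -0.04 without Bl-1, and the 3 h value had an adjusted p of 0.98 without Bay-0. Between 1 h and 3 h the mean step was 0.51 ± 0.08 (adjusted p = 7.23e-07). The level over all times ranged by 3.31, with Bl-1 lowest at 5.32, C24 at 7.60 and Bay-0 highest at 8.63. The range was 1.97 without Bl-1 and 2.27 without Bay-0.

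AT5G52760, the heavy-metal-domain gene, lay above its 0 h arrays without overlap in 13 of 21 accession and time comparisons and below in 3, where 30% of all such comparisons over tested probe sets had no overlap in either direction. Bur-0 showed the steepest change: signals of 29.5, 32.8 and 27.8 at 0 h stood beside 155, 138 and 170.5 at 30 min, 143, 192 and 185 after 1 h, and 153, 123 and 206 after 3 h. The means were 5.14, 5.76 and 5.36 times the 0 h mean, and the changes 1.89 ± 0.17, 2.03 ± 0.17 and 1.92 ± 0.17. The gene was thus high within 30 min in Bur-0 and stayed there.

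C24 and Col-0 reached their highest signals at 3 h. In C24 the signals were 21.0, 22.2 and 23.3 at 0 h and 63.7, 84.2 and 47.7 at 3 h, and the changes 0.36, 0.58 and 1.07. In Col-0 they were 55.6, 39.2 and 52.6 at 0 h and 125, 137 and 200.0 at 3 h, with 0.71, 0.61 and 1.37. All 9 later arrays lay above the 0 h arrays in Bur-0, C24 and Col-0 alike. Bay-0 again was up at 30 min, with 346, 241 and 272, level with 0 h at 1 h, with 101, 90.1 and 129, and up at 3 h, with 190.0, 182 and 197, against 80.6, 117 and 124 at 0 h. Bl-1 had 44.4, 29.5 and 33.7 at 30 min against 114, 102 and 80.6 at 0 h, and overlapped its 0 h arrays at 3 h, with 116, 101 and 75.2. Sha (0.24, 0.45 and 0.32) and Fei-0 (0.22, 0.12 and -0.24) moved little.

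The 0 h order of AT5G52760 ran from C24 through Fei-0, Bur-0, Col-0, Sha and Bl-1 to Bay-0, with the last 4.84 times the first. Fei-0 overlapped Bur-0, Sha overlapped Bl-1 and Bl-1 overlapped Bay-0. By 30 min Bur-0, the third at 0 h from the low end, was second only to Bay-0. The mean response was 0.51 ± 0.07 (adjusted p = 1.65e-09), 0.44 ± 0.07 (adjusted p = 7.00e-08) and 0.74 ± 0.07 (adjusted p = 2.28e-15) in limma, upward in 6, 6 and 5 of 7 accessions, and under 2-fold. The level over all times ranged by 1.98, from 5.46 in Fei-0 to 7.44 in Bay-0, and by 1.52 without Bay-0.

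AT2G38870, the proteinase inhibitor gene, had array signals of 337 to 2157 and changed most in Sha. There the signals were 464, 337 and 454 at 0 h, 1335, 1386 and 1381 at 30 min, 1111, 939 and 1179 after 1 h, and 1829.8, 1633 and 2157 after 3 h. The changes were 1.68 ± 0.13, 1.34 ± 0.13 and 2.12 ± 0.13, so the accession with the lowest mean at 0 h had the highest at 3 h. C24 was higher at 1 h, with 1046, 908 and 1039 against 421, 490.4 and 373 at 0 h (change 1.196 ± 0.13), and less so at 3 h (0.61 ± 0.13). Bur-0 was higher at 1 h and 3 h (0.78 ± 0.13 and 0.69 ± 0.13), and Bay-0 at 3 h alone, with 1421, 1638 and 1448 (0.60 ± 0.13).

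In Bl-1 AT2G38870 started highest, at 1171, 1231 and 1172, and was slightly lower without overlap at 30 min (-0.23 ± 0.13) and 1 h (-0.25 ± 0.13). Col-0 and Fei-0 stayed within -0.37 and 0.15. The 0 h order was Sha, C24, Bur-0, Fei-0, Col-0, Bay-0 and Bl-1, with Sha and Bur-0 both overlapping C24, and the highest mean was 2.85 times the lowest. The mean response was 0.12 ± 0.05 (adjusted p = 0.0543), 0.45 ± 0.05 (adjusted p = 3.71e-12) and 0.57 ± 0.05 (adjusted p = 2.03e-16) in limma. The level over all times ranged by 0.95, from 9.13 in Fei-0 to 10.08 in Bl-1. It reached 1.00 when the arrays numbered 3 were left out.

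AT3G18250, the predicted membrane lipoprotein gene, was lower after treatment in Bl-1 and higher in Sha. In Sha the signals were 34.6, 31.1 and 32.4 at 0 h, 156, 153 and 151 at 30 min, 182, 135 and 155 after 1 h, and 348, 271 and 307 after 3 h. The 3 h mean was 9.45 times the 0 h mean, and the changes 1.80 ± 0.15, 1.82 ± 0.15 and 2.73 ± 0.15, the last being the largest upward value of the 5 genes. In Bl-1 the signals were 70.8, 105 and 86.9 at 0 h, 22.4, 25.6 and 19.5 at 30 min, 33.8, 37.2 and 45.6 after 1 h, and 37.2, 28.6 and 26.9 after 3 h (changes -1.42, -0.91 and -1.13), and none of the 9 later arrays reached the 0 h range.

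Bay-0 had its highest AT3G18250 signals at 3 h, with 125, 159 and 154 at 0 h, 185, 180.3 and 178 at 30 min, 111, 126 and 128 after 1 h, and 623, 592 and 436 after 3 h (change 1.80 ± 0.15). Bur-0 and C24 peaked at 1 h. In C24 the signals were 8.47, 8.92 and 12.6 at 0 h, 67.9, 45.3 and 81.6 after 1 h, and 41.9, 27.8 and 24.6 after 3 h (changes 1.62 ± 0.15 and 0.85 ± 0.15), and in Bur-0 11.3, 19.5 and 16.8 and 67.8, 58.1 and 59.4 at 0 h and 1 h (1.29 ± 0.15). Several of these 0 h signals lie under the 16 added, so the size of these changes is poorly measured. In Col-0 the changes were downward (-0.42, -0.31 and -0.26), and in Fei-0, where every array lay at 9.44 to 20.5, they did not pass 0.13.

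At 0 h the means of AT3G18250 ran from 10.0 ± 2.27 in C24 through Fei-0, Bur-0, Col-0, Sha and Bl-1 to 146 ± 18.4 in Bay-0. The C24 mean lay under 16, so no fold is given. C24, Fei-0 and Bur-0 overlapped in turn, as did Col-0 and Sha. The mean response was 0.13 ± 0.06 (adjusted p = 0.0877), 0.47 ± 0.06 (adjusted p = 6.24e-11) and 0.73 ± 0.06 (adjusted p = 1.84e-18) in limma. Without Bl-1 the 3 h value was 1.04 and passed 2-fold, a setting tried after the data were seen. The level over all times ranged by 2.88, from 4.92 in Fei-0 to 7.19 in Sha and 7.80 in Bay-0.

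**Figure D2:**
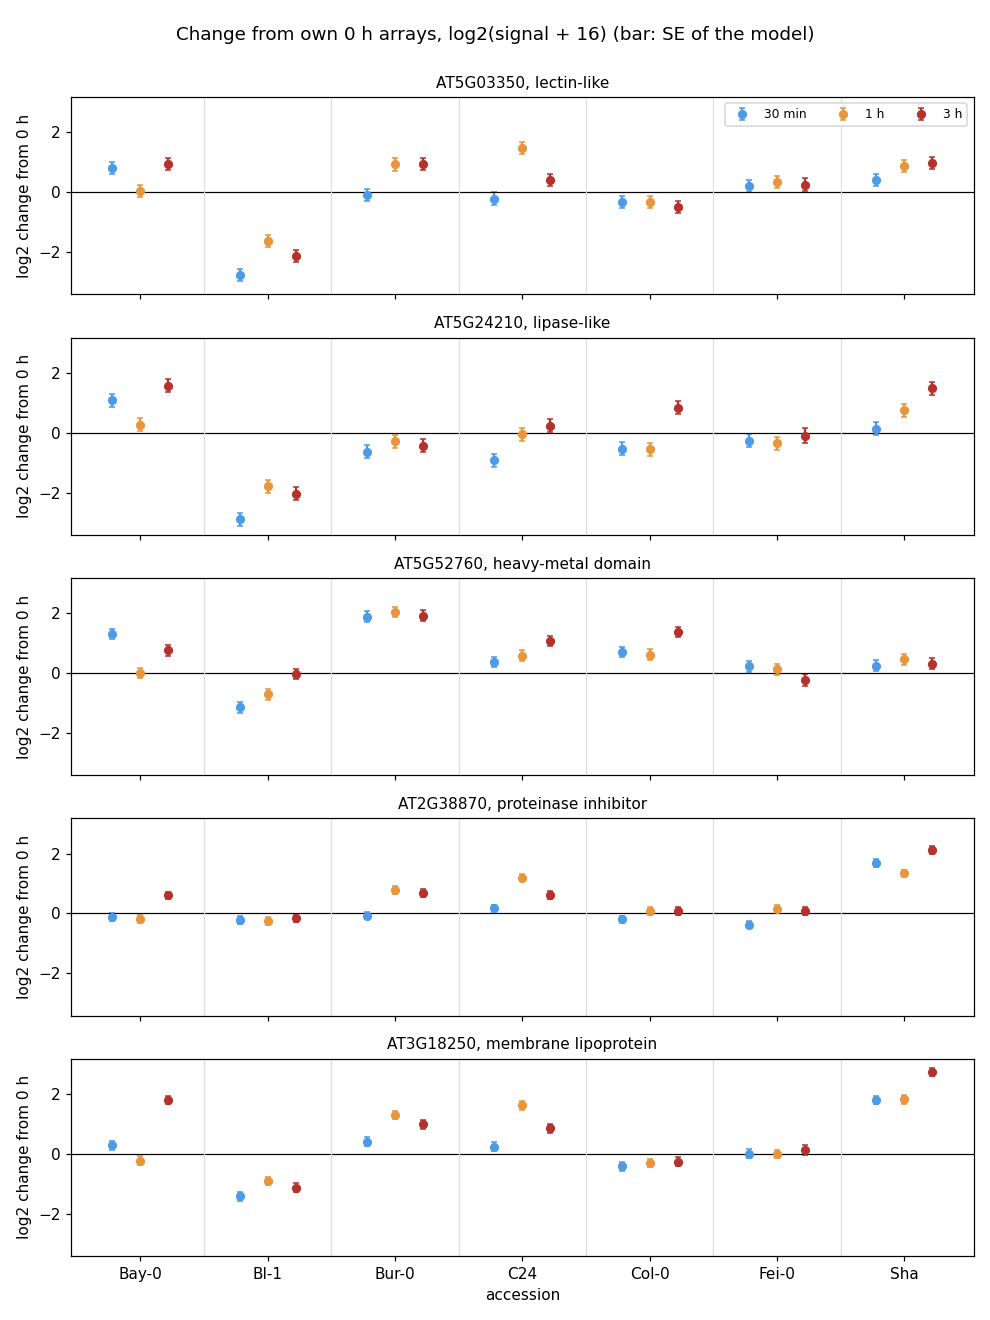
Change of log2(signal + 16) from the accession's own 0 h arrays at 30 min, 1 h and 3 h, with bars for the SE of the model and 1 panel per gene. All 15 points of Bl-1 lie below 0, those of Sha lie above 0, and Bay-0 lies near 0 at 1 h between higher points at 30 min and 3 h for AT5G03350, AT5G24210 and AT5G52760.

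Over the 5 genes, then, none was called in the mean response at 30 min (0.729% of tested probe sets were), at 1 h (0.961%) or at 3 h (1.28%), nor in the mean steps from 30 min to 1 h (0.0691%) or from 1 h to 3 h (0.559%). By direction, the backgrounds were 0.609% up with 0.119% down for the 30 min response, 0.81% with 0.151% for that at 1 h, and 0.691% with 0.59% for that at 3 h. For the steps they were 0.0691% up and 0% down, then 0.182% up and 0.377% down. At an unadjusted p under 0.05 and 2-fold the count was also 0 each time, and without the fold 5, 5 and 4 of 5 passed for the responses. With the adjusted p alone 3 of 5 passed at 30 min (1 up and 2 down, background 23.7%), 5 at 1 h (4 up and 1 down, 31.4%) and 4 at 3 h, all up (43.9%). Without Bl-1 none of the 3 downward values passed, with an adjusted p of 0.246 for AT5G03350 at 30 min, and of 0.122 and 0.785 for AT5G24210 at 30 min and 1 h. Some upward values came to pass in limma without Bl-1. They were AT3G18250 (0.38, adjusted p = 5.96e-07) and AT2G38870 (0.18, adjusted p = 0.0071) at 30 min, and AT5G03350 (0.50, adjusted p = 5.57e-07) at 3 h. For the steps 4 of 5 passed both times, all up (23.6% and 37.7%). The step from 1 h to 3 h rested in part on Bay-0. Without it AT2G38870 was at 0.02 (adjusted p = 0.824) and AT3G18250 at -0.03 (adjusted p = 0.712) in limma. AT5G03350 then passed downward, at -0.28 (adjusted p = 0.00878), while AT5G24210 and AT5G52760 still passed upward. The step of AT5G24210 from 30 min to 1 h was 0.16 (adjusted p = 0.245) without Bl-1. The range of the level over all times was at least 1 in 4 of 5 genes (18.3% of tested probe sets). That share also needed an adjusted p under 0.05. Levels at 0 h were part of the choice of genes and enter this range, so nothing is read from the count. Bay-0 was the highest accession by the level over all times for AT5G03350, AT5G24210, AT5G52760 and AT3G18250, and Fei-0 the lowest for all but AT5G24210. Without the Bay-0 arrays the ranges of these 4 genes were 2.15, 2.27, 1.52 and 2.28.

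The balance of variation differed between the 5 genes. Differences between accessions held 77.3% of the sum of squares of AT5G03350, 71.6% of AT3G18250, 68.1% of AT5G24210, 58.7% of AT5G52760 and 45.5% of AT2G38870. The accession-by-time part held 17.2% of AT5G03350 and 33.1% of AT2G38870, the lowest and highest of the 5. The choice of genes used this part and also the level in each accession, so all these shares are values only. Replicates held 1.6% to 5.1%. The medians over all tested probe sets were 44.2% for accessions, 6.9% for time, 14.8% for accession by time and 25.7% for replicates.

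**Figure D3:**
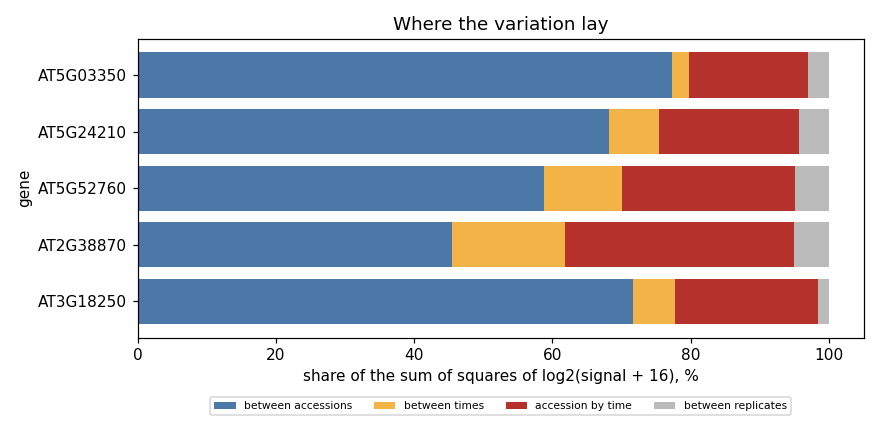
Share of the sum of squares of log2(signal + 16) lying between accessions, between times, in the accession-by-time part and between replicates, as stacked bars for the 5 genes. AT5G03350 has the largest part between accessions (77.3%) and AT2G38870 the smallest (45.5%).

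Other measures moved with some of these courses, and their part in them was not tested. In Bl-1 the GAPDH 3'/5' ratio was 2.52 at 0 h and 1.48, 1.67 and 1.65 later, and the root markers summed to 101 at 0 h, the lowest group, and 209.6, 198 and 157 later. The actin 3'/5' ratio of Bl-1 was 26.3, 20.5, 20.2 and 23.5 in time order. The shoot markers of Bl-1 went from 6879.9 at 0 h to 7099 at 30 min and 4836 at 3 h. The treatment marks of Bl-1 responded, with LBD29 changing by 3.26, 3.89 and 3.72 and HAT2 by 2.58, 2.32 and 1.32 in time order. In Sha, where AT2G38870 and AT3G18250 were higher, root markers went from 188 at 0 h to 460.1 at 3 h, and the GAPDH ratio was 1.43, 1.98, 1.75 and 1.41 and the actin ratio 13.4, 21.0, 20.7 and 15.3 in time order. In Bay-0 root markers summed to 169.7 at 0 h and 244, 294 and 335 later, with GAPDH ratios of 1.64, 1.88, 2.102 and 1.75 and actin ratios of 3.51, 5.56, 5.57 and 2.57. In Bur-0 shoot markers went from 8379 at 0 h to 4439.7 at 3 h, and the GAPDH ratio was 2.67 at 1 h against 1.70 at 0 h. C24 at 1 h, where 4 genes were high, had a GAPDH ratio of 2.99 against 1.61 at 0 h. Fei-0 at 1 h, where 1 of 5 genes lay above 0 h without overlap, had 2.66 against 1.89. Shoot markers were also lower at 3 h than at 0 h in Col-0 (4644 against 6685) and C24 (4269 against 5411). The same held in Fei-0 (4847 against 5757) and Sha (2451 against 2915), while Bay-0 had 3241 against 3224. In Col-0 the GAPDH ratio was 2.92 at 0 h and 2.00 to 1.93 at 30 min and 1 h. At both of these times AT5G24210 and AT3G18250 lay below 0 h and AT5G52760 above it without overlap. AT5G03350 and AT2G38870 had small changes, with AT2G38870 at 30 min and AT5G03350 at 1 h also below 0 h without overlap. The Col-0 actin ratios of 105, 66.5, 77.8 and 62.9 were the highest of the 7 accessions at each time.

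Within the set the profiles over the 28 group means were alike to very different degrees. Pearson's r, given as a description over groups that share accessions and arrays, was 0.81 for AT2G38870 with AT3G18250, 0.78 for AT5G03350 with AT3G18250, 0.73 for AT5G03350 with AT5G52760 and 0.14 for AT5G24210 with AT2G38870. AT5G24210, the lipase-like gene, had r between 0.14 and 0.56 with the other 4 members, and its closest tested gene reached only 0.78 (AT3G52240), followed by AT5G66060 at 0.78 and AT5G45000 at 0.77.

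The profile of AT3G18250 was nearest to AT5G38900 (r = 0.94), the chitinase gene CHI (0.92) and AT1G22890 (0.92). CHI changed by -1.72, -0.76 and -0.55 in Bl-1 and by 0.57, 1.05 and 1.19 in Sha. AT5G03350 was nearest to AT1G13470 (0.89), AT4G22470 (0.86) and the leucine-rich repeat receptor kinase gene AT1G51790 (0.85). AT5G52760 was nearest to AT5G05300 (0.88), to BZIP60, a transcription factor of the endoplasmic reticulum stress response (0.87), and to the glucanase-like gene AT4G16260 (0.87). AT2G38870 was nearest to AT1G51790 (0.87), to YLS5 (0.86) and to AT1G26380, which encodes a berberine bridge enzyme-like oxidase (0.83). AT1G26380 changed by 1.44, 1.21 and 2.64 in Sha. These genes were selected by likeness, so their changes are values only.

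A neighbouring gene had a like profile in 2 cases. YLS5, AT2G38860, is the protein-coding gene next to AT2G38870 in the RefSeq order, and AT5G52750, another gene with a heavy-metal-associated domain, is next to AT5G52760, with r = 0.85 over the 28 group means. YLS5 was selected by likeness above, so its r of 0.86 is a value only. How many tested probe sets reach such an r was not worked out for either gene. YLS5 changed by 0.22, 1.29 and 0.64 in C24 and 0.58, 0.90 and 1.39 in Sha, where AT2G38870 changed by 0.17, 1.196 and 0.61 and 1.68, 1.34 and 2.12. Of the other neighbours, those with a probe set past the filter, AT5G03345 beside AT5G03350 and AT3G18260 beside AT3G18250, had r = 0.03 and -0.09; these 2 were looked at after the data were seen. The remaining neighbours had no probe set listed alone past the filter.

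Relatives of the 5 genes were taken by shared domain or family, those of AT5G24210 and AT5G52760 from neighbouring loci. Of 24 listed, 14 had a probe set listed alone and 7 passed the filter. None was listed for AT3G18250, and none of the family of AT2G38870 passed the filter. A difference in response between accessions was called in 3 of 7 at 30 min (9.23% of tested probe sets), 2 at 1 h (7.41%) and 3 at 3 h (11.3%), and a difference in level over all times in 5 of 7 (18.3%), or 2 with 64 added and 3 without Bay-0. AT5G52750 was called at each time, with ranges of 1.65 (adjusted p = 6.02e-06), 1.56 (adjusted p = 2.35e-07) and 1.23 (adjusted p = 5.18e-07) in limma. It changed by 1.37, 1.41 and 1.29 in Bur-0, 0.70, 0.75 and 1.44 in Col-0 and -0.28, -0.02 and 0.28 in Bl-1 in time order, and its call was lost at 30 min without Bl-1 (0.83) and at 3 h with 64 added (0.92). Its neighbour AT5G52760 showed 1.89, 2.03 and 1.92 in Bur-0, 0.71, 0.61 and 1.37 in Col-0 and -1.15, -0.71 and -0.03 in Bl-1.

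The heavy-metal-domain gene AT5G52670 took a course of its own. It rose in the mean of the accessions by 1.31 ± 0.09 (adjusted p = 9.66e-21) at 30 min and 1.38 ± 0.09 (adjusted p = 5.87e-22) at 1 h, upward in all 7, and fell from 1 h to 3 h, with a step of -1.79 ± 0.09 (adjusted p = 3.48e-27). With 64 added to the signals these 3 values were 0.71, 0.76 and -0.95, under 2-fold. Its response differed between accessions at 3 h, by 1.40 (adjusted p = 0.00392), with -1.45 in Bay-0, a call lost with 64 added (0.77), without replicate 3 (1.44, adjusted p = 0.16) and without Bay-0 (0.60, adjusted p = 0.626). At 1 h its range was 1.12 to 1.29 and called when any of 6 arrays was left out. AT5G52710 showed ranges of 0.85, 0.61 and 0.82 in its response and was not called. It was called at 30 min without replicate 1 (1.25) or without replicate 1 of Bl-1 at 0 h alone (1.07), and at 3 h without replicate 1 (1.33) or without replicate 1 of Bur-0 at 3 h alone (1.06).

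Among the legume lectin relatives of AT5G03350, AT3G16530 differed in its response at each time, by 1.06 (adjusted p = 0.0101), 1.67 (adjusted p = 7.00e-05) and 1.55 (adjusted p = 1.80e-04). In Bl-1, where AT5G03350 was lower, AT3G16530 changed by 0.62, 0.52 and 0.64, and in Bay-0 by 0.31, -0.48 and -0.65. Its 30 min range was 0.97 to 1.00 and not called when replicate 1 or 2 of Bur-0 at 30 min, replicate 1 of Fei-0 at 0 h or replicate 3 of Fei-0 at 30 min was left out, and the call was also lost with 64 added (0.98), without replicate 1 (0.98, adjusted p = 0.234) and without replicate 2 (1.22, adjusted p = 0.0798). AT1G53080 was called at 30 min alone, at 1.11 (adjusted p = 0.049), a call lost when any of 48 of the 83 arrays was left out, with an adjusted p of up to 0.222, and also with 1 added (2.00, adjusted p = 0.165), with 64 added (0.55), without a filter (1.11, adjusted p = 0.0791), with the robust prior (1.11, adjusted p = 0.0509), with the replicate block (1.11, adjusted p = 0.0543), without replicate 1 (0.94, adjusted p = 0.364), without replicate 2 (0.99, adjusted p = 0.312) and without Bl-1 (0.44, adjusted p = 0.828). AT1G53070 had ranges of 0.45, 0.35 and 0.47, and the lipase-like AT5G24230, a relative of AT5G24210, 0.34, 0.40 and 0.56, and neither was called.

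The wider defence pathways could be followed only in part, because most of their genes had no probe set listed alone in the annotation used. That annotation lists no gene for 8730 of the 22746 probe sets, so probe sets for the missing genes may exist unlisted. The genes measured do not stand for whole pathways. Of 36 genes of salicylic acid synthesis and signalling 4 were measured, of 27 salicylic acid-responsive genes 3, and of 21 jasmonate and ethylene defence genes 2 (3 had a probe set). Of these 9 genes 0 were called in the mean response at any time. A difference in response between accessions was called in 5 of 9 at 30 min (9.23% of tested probe sets), 6 at 1 h (7.41%) and 7 at 3 h (11.3%), with median ranges of 1.22, 1.35 and 1.35 against 0.54, 0.50 and 0.55 over all tested probe sets. Level over all times was called in 8 of 9 (18.3%) and level at 0 h in 8 of 9 (background 23.3%). Without Bay-0 these counts were 5, 5, 5, 7 and 4, and with 64 added 3, 5, 4, 4 and 4, in the same order. These lists were chosen with results of the same arrays known.

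In the salicylic acid synthesis and signalling list the transcription factor gene WRKY53 was the 1 gene called at 30 min and 1 h. Its response differed by 2.28 (adjusted p = 2.98e-12), 2.41 (adjusted p = 2.72e-12) and 2.08 (adjusted p = 5.30e-13) in limma. It changed by 0.36, 2.18 and 1.34 in Bur-0, 0.66, 1.40 and 1.58 in Col-0 and -1.61, -0.23 and -0.50 in Bl-1. In the mean of the accessions it rose from 30 min to 1 h by 1.25 ± 0.06 (adjusted p = 3.57e-28), and its mean response at 1 h was 0.99 ± 0.06, just under 2-fold. The step was under 2-fold with 64 added (0.92). The response at 1 h was past 2-fold, at 1.00 to 1.02, when any of 6 arrays was left out, and also with 1 added (1.11), without replicate 2 (1.10), without Bay-0 (1.08) and without Bl-1 (1.19). UGT76B1, which glycosylates salicylic acid and isoleucic acid, was called for its response at 3 h alone, at 1.35 (adjusted p = 0.00249), and lost that call with 64 added (0.94) and without replicate 3 (1.10, adjusted p = 0.142).

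AT5G52810, the SARD4 gene of pipecolic acid synthesis, was called for level and not for response. Its level over all times ranged by 3.49 (adjusted p = 4.44e-47), lowest in Bl-1 and highest in Bay-0, and its response by 1.00, 0.48 and 0.98, not called. The 3 h range was 1.01 to 1.31 and called when any of 6 arrays was left out, and that at 30 min was 1.33 and called without replicate 3 of Bl-1 at 0 h. Leaving out all arrays of 1 replicate number gave calls too, at 3 h without replicate 2 (1.15) and without replicate 3 (1.07) and at 30 min without replicate 3 (1.35). SAG101, a lipase-like partner of EDS1, was called for level at 0 h alone, at 1.01 (adjusted p = 5.00e-04), with Fei-0 lowest and Bay-0 highest, and at 0.88 and 0.82 was not called when replicate 3 of Bay-0 or of Fei-0 at 0 h was left out. That call was also lost with 64 added (0.57), without replicate 3 (0.82) and without Bay-0 (0.88), while its level over all times was called with 1 added (1.23), without replicate 1 (1.02) and without replicate 2 (1.02).

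The 3 measured salicylic acid-responsive genes were each called at each time, and AT3G60420 kept its 3 calls under every alternative run. GRX480, a glutaredoxin that binds TGA factors, ranged by 1.08 (adjusted p = 5.32e-04), 2.03 (adjusted p = 4.32e-09) and 1.86 (adjusted p = 1.92e-09). It changed by 0.89, 1.29 and 1.25 in Bur-0, 1.01, 0.93 and 1.05 in Col-0 and 0.56, -0.75 and -0.61 in Bay-0, and its 30 min range was 0.96, not called, without replicate 1 of Col-0 at 0 h. Its calls were lost at 30 min with 64 added (0.59) and without replicate 1 (0.94, adjusted p = 0.0949) and at 3 h with 64 added (0.91). AT3G60420 ranged by 2.63, 2.17 and 2.33, and changed by 1.94, 0.45 and 2.06 in Bay-0, the up, back and up course of AT5G24210 there, and by -0.68, -0.51 and -0.27 in Bl-1. AT5G55450, a lipid transfer protein gene, had ranges of 1.69, 1.35 and 1.32, with -0.86, -0.11 and -0.16 for Bl-1 and 0.62, 1.23 and 1.16 for Bur-0. It lost its calls at 1 h without replicate 2 (1.502, adjusted p = 0.107) and at 3 h without replicate 2 (1.28, adjusted p = 0.0624).

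In the jasmonate and ethylene list the defensin genes PDF1.2 and PDF1.2b were measured, near-identical copies whose probe sets may share signal. PDF1.2 ranged by 1.47 (adjusted p = 2.87e-04), 1.19 (adjusted p = 0.00668) and 1.303 (adjusted p = 0.00498), with 1.43, 0.92 and 0.37 in Bur-0 plants and 0.17, 0.13 and 0.12 in those of Bl-1. Its 1 h call was lost without replicate 3 of Bur-0 at 0 h (adjusted p = 0.0516), and also with 1 added (1.86, adjusted p = 0.0604), with 64 added (0.66) and without replicate 3 (0.92, adjusted p = 0.252). The call at 30 min was lost with 64 added (0.88) and that at 3 h with 64 added (0.62), without replicate 1 (1.03, adjusted p = 0.137), without replicate 3 (1.303, adjusted p = 0.0872) and without Bay-0 (0.88). Its level at 0 h was not called, but was called with 1 added (1.77), without replicate 2 (1.16) and without replicate 3 (1.03), and without the single 0 h arrays Bay-0 replicate 2 (1.12) or Bur-0 replicate 3 (1.06). PDF1.2b was called at 1 h and 3 h, at 2.13 (adjusted p = 8.12e-04) and 2.14 (adjusted p = 2.92e-05), with 0.40, -1.30 and -1.84 in Bay-0. The calls were lost at 1 h without replicate 1 (2.18, adjusted p = 0.108), without replicate 3 (1.48, adjusted p = 0.0577) and without Bay-0 (1.07, adjusted p = 0.197) and at 3 h without replicate 1 (1.72, adjusted p = 0.0699) and without Bay-0 (1.05, adjusted p = 0.184). At 30 min its range was 1.22 (adjusted p = 0.119), not called, and it was called at 1.53 without replicate 2 of Bur-0 at 30 min and without replicate 2 (1.63). In Bl-1, where all 5 genes were lower at 30 min, the changes of the defensins lay between 0.03 and 0.28.

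**Figure D4:**
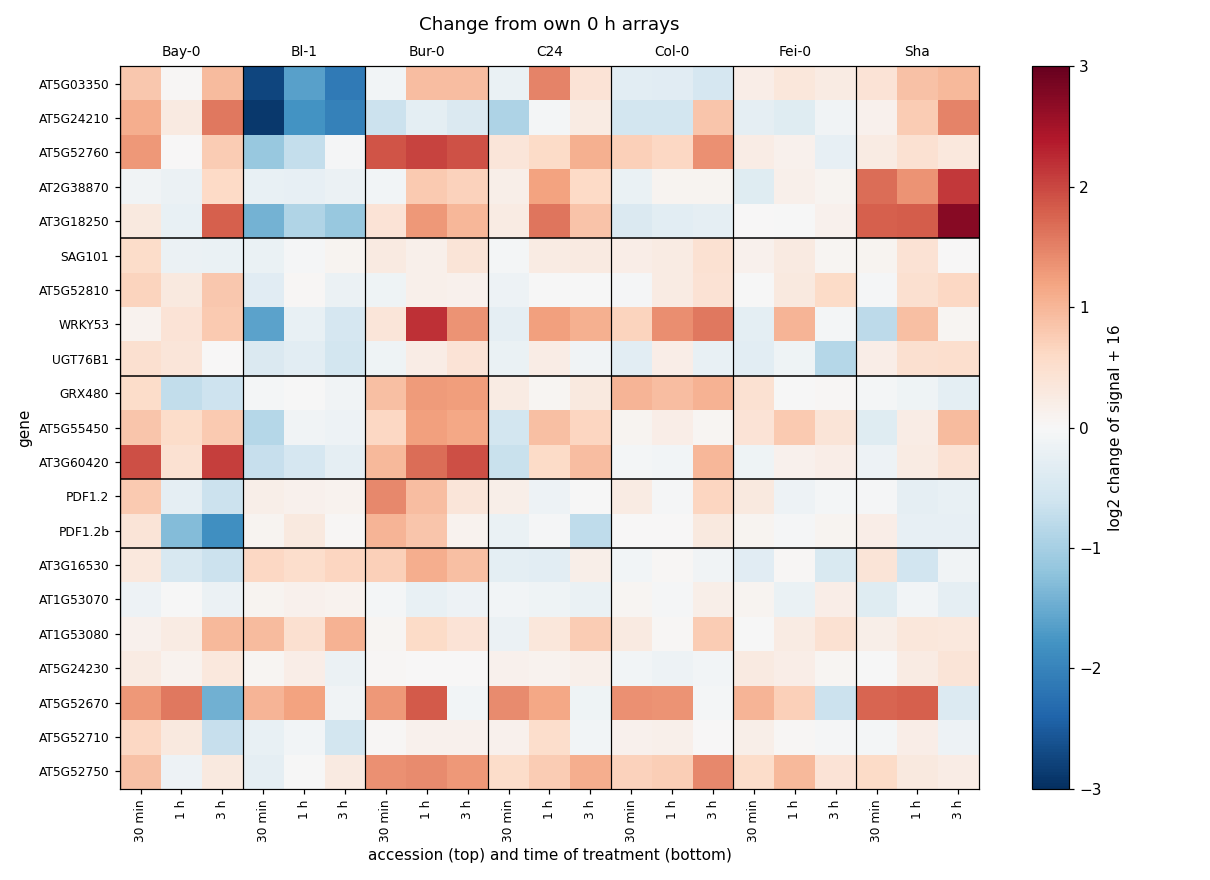
Change of log2(signal + 16) from the accession's own 0 h arrays for the 5 genes (top block), the measured genes of salicylic acid synthesis and signalling, salicylic acid-responsive defence, and jasmonate and ethylene defence, and the relatives of the 5 genes (bottom block), in 21 accession and time columns. Colours run from blue (lower) to red (higher). The Bl-1 columns are blue for AT5G03350, AT5G24210 and AT3G18250, and for WRKY53 at 30 min (-1.61). In Bl-1, AT5G52760 is blue at 30 min and 1 h and close to white at 3 h, and AT2G38870 is close to white throughout. AT5G52670 is red at 30 min and 1 h in every accession.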

How the data were processed

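The deposited values were signal intensity on a linear scale, 1 per probe set and array, and MAS5 and GCOS appear in the submitters' processing notes; no version is given in the sources used here. Each array had a trimmed mean signal (2% off either end) of 100.0. For arrays the number of replicates, not a depth, limits the precision. Here 64 control probe sets were set aside, 16 was added, log2 taken, and probe sets in the lowest 30% by mean (6824 of 22746) left out. Of the 22746, 1 gene was listed for 13513, several for 503 and none for 8730, and genes were named only from the first kind. Symbols came from the platform annotation and RefSeq.

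The fit used limma 3.58.1 under R 4.3.3 on all 83 arrays with 1 mean per group and a trended prior (55 residual and 13.2 prior degrees of freedom). Contrasts were the response and step averaged over accessions. Moderated F tests covered level over all times, level at 0 h and, at each time, the response. A call needed a Benjamini-Hochberg adjusted p under 0.05 over all tested probe sets and 2-fold, or a range of at least 1 on the log2 scale in F tests; all tests were two-sided. For the 5 genes only the contrasts averaged over accessions were read as tests. Whether replicates are separate cultures is not in the labels, so the p-values reflect the spread among these samples alone, possibly a technical one. The fit was tested on simulated data. The 5 genes, the lists, the relatives and the tests were chosen with earlier results of these data known. Named genes were the 5, for each the 3 tested genes of highest Pearson correlation over the 28 group means, up to 4 list members called for response at 1 h, up to 3 for level and up to 3 for mean response, all relatives past the filter, and the treatment marks. SAG101, and the responses of UGT76B1 and AT5G52810, were added for the account of the lists. Alternatives were an added 1 or 64, no filter, quantile normalization, median centring, an untrended robust prior, a replicate block and leaving out arrays. Motif searches in promoters were planned and not run, since no sequence was at hand.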

Additional observations from a re-analysis of the deposited data

Results flagged for a closer look

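For each of the 5 genes, at 1 time or more, all arrays of that time lay above 0 h in at least 1 accession. At the same time they all lay below 0 h in at least 1 other accession. The difference was not tested, since the genes were chosen for it. At 30 min, 1 h and 3 h the range of the 7 log2 changes was 3.58, 3.11 and 3.11 for AT5G03350, 3.98, 2.54 and 3.61 for AT5G24210, 3.03, 2.74 and 2.16 for AT5G52760, and 3.22, 2.73 and 3.87 for AT3G18250. For AT2G38870 it was 2.06 at 30 min and 1.59 at 1 h, while at 3 h, with a range of 2.29, no accession lay below its 0 h arrays. AT5G24210 at 30 min had 5 accessions below and 1 above, and AT5G52760 at 30 min 5 above and 1 below.

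Among the other genes named, the response differed between accessions by the moderated F test of limma (range over 7 accessions on the log2 scale, adjusted over all tested probe sets). WRKY53 gave 2.28 (adjusted p = 2.98e-12) at 30 min, 2.41 (adjusted p = 2.72e-12) at 1 h and 2.08 (adjusted p = 5.30e-13) at 3 h. GRX480 gave 1.08 (adjusted p = 5.32e-04), 2.03 (adjusted p = 4.32e-09) and 1.86 (adjusted p = 1.92e-09), the first no longer called without replicate 1 of Col-0 at 0 h (0.96). AT5G55450 gave 1.69 (adjusted p = 6.33e-06), 1.35 (adjusted p = 0.00276) and 1.32 (adjusted p = 0.00138), and AT3G60420 2.63 (adjusted p = 7.52e-09), 2.17 (adjusted p = 8.12e-05) and 2.33 (adjusted p = 1.05e-07). UGT76B1 was called at 3 h, at 1.35 (adjusted p = 0.00249). PDF1.2 gave 1.47 (adjusted p = 2.87e-04), 1.19 (adjusted p = 0.00668) and 1.303 (adjusted p = 0.00498), the 1 h call being lost without replicate 3 of Bur-0 at 0 h (adjusted p = 0.0516), and PDF1.2b 2.13 (adjusted p = 8.12e-04) at 1 h and 2.14 (adjusted p = 2.92e-05) at 3 h.

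Of the relatives, AT5G52750 gave 1.65 (adjusted p = 6.02e-06), 1.56 (adjusted p = 2.35e-07) and 1.23 (adjusted p = 5.18e-07) at the 3 times. AT3G16530 gave 1.06 (adjusted p = 0.0101), 1.67 (adjusted p = 7.00e-05) and 1.55 (adjusted p = 1.80e-04), with 4 arrays any of which ended the 30 min call (range 0.97 to 1.00). AT5G52670 gave 1.40 (adjusted p = 0.00392) at 3 h. AT1G53080 gave 1.11 (adjusted p = 0.049) at 30 min, a call that ended when any of 48 arrays was left out. The calls for a difference in response of WRKY53 and AT3G60420 held under every alternative run, while each of the other genes with such a call lost at least 1 under some alternative.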

How the results depend on the processing

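The number added before taking logs moved the counts of called probe sets most. The counts in the mean response at 30 min, 1 h and 3 h were 116, 153 and 204 with 16 added, 225, 303 and 436 with 1, and 49, 55 and 74 with 64. Those of the first and second mean step were 11 and 89 with 16, 36 and 219 with 1, and 1 and 29 with 64. For level over all times they were 2911, 4751 and 1215, and for level at 0 h 3716, 5847 and 1570, in the same order. A difference in response was called in 1470, 1180 and 1805 probe sets at the 3 times with 16 added, 2281 at 30 min with 1, and 525, 415 and 711 with 64. AT5G24210 had a mean response at 30 min of -0.58 ± 0.08 with 16 added and -1.02, past 2-fold, with 1. Of the 9 genes of the 3 defence lists, 4, 4, 3, 5 and 4 were called with 64 added for level over all times, level at 0 h and response at the 3 times. Of the 105 changes of the 5 genes in single accessions, 25 moved by more than the SD between replicates with 1 added and 30 with 64, and 7 to 10 when 1 replicate number was left out.

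Leaving out all arrays with 1 replicate number, or any single array, moved the level range of AT2G38870 between 0.92 and 1.00 (0.95 with all arrays), the highest without replicate 3. The counts over all probe sets stayed within 1.5 times. No mean response or step of the 5 genes came to be called, and no other level range crossed 1. Without Bl-1, added after seeing the data, AT3G18250 had a mean response at 3 h of 1.04, past 2-fold. Without Bay-0, also added after seeing the data, no mean response or step of the 5 genes was called and no level range crossed 1. The same held without a filter, with quantile normalization, median centring, or an untrended robust prior. Deviations from group means correlated at a median of r = 0.01 over 1107 pairs with the same replicate number (-0.35 to 0.31, 10.9% over 0.1). These pairs pool all accessions and times, so the median cannot tell whether replicate numbers pair samples within an accession. With the replicate number as a block, AT5G52760 had a mean response at 3 h of 0.74 and AT3G18250 a level range of 2.88. Again no mean response or step of the 5 genes was called and no level range crossed 1. With that block AT1G53080 lost its call at 30 min (adjusted p = 0.0543), as it did without a filter and with the robust prior. Signals under about 16, as those of AT5G24210 in Bl-1 at 30 min, are too near background to give the size of a change.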
